A study of Arabidopsis thaliana with 12 samples.

Results

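Splicing of *Arabidopsis thaliana* transcripts was compared between the fifth and the third day after a move to 25 °C, to see which genes still shifted late in the warmth and which had settled. Every event in the deposited splicing table was taken, 638 of 638, in 511 of 511 genes, and for each the PSI at 25 °C on day 3 was subtracted from that on day 5. PSI, the percentage spliced in, is the share of a gene's transcripts at an event that carry the isoform set as reference, written here from 0 to 1. For retained introns it is read here, by the usual convention of the MISO program, as the share that keeps the intron; for the other types the table does not say which of the isoforms is counted. All plants were Col-0 wild type, raised for 5 weeks at 16 °C in short days (light for 8 h, dark for 16 h). The 12 samples formed 4 groups of 3, namely 16 °C on day 1 and 25 °C on days 1, 3 and 5, each sample being the pooled shoot apex tissue of about 10 plants. The tissue was enriched for the meristem by taking leaves off, and the labels also name young leaves; the table holds no expression levels, so the tissue could not be checked against marker genes. The 6 samples of days 3 and 5 differ in time at 25 °C and also in plant age, and these cannot be told apart. Plants at 16 °C were sampled on day 1 only, so days 3 and 5 have no cool group of the same age. Toward or away from 16 °C below refers to that day 1 group. The table gives 1 PSI per group, from 0.01 to 0.99 and rounded to 2 decimals, so no difference below could be tested against the spread between samples, the depth behind a value is unknown, and a difference can be off by up to 0.01 through rounding alone. Higher and lower are therefore used only to order the given values, and the thresholds are sizes, not tests.

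Splicing removes introns from a primary transcript between a 5′ site, which nearly always begins with GT, and a 3′ site, which nearly always ends with AG. A plant transcript can keep an intron (retained intron), join a different 5′ or 3′ site (alternative 5′ or 3′ site) or leave out an exon (skipped exon). Retained introns are the commonest form in plants, and the resulting transcripts are often held in the nucleus or degraded, so a change in PSI can change the amount of protein as well as its form. Ambient temperature is known to shift many such choices in *Arabidopsis*, among them those of *FLM*, a repressor of flowering.

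Where in a gene an event lies is not recorded in the table, so splice sites can be shown only where a gene has a single annotated intron. Among protein-coding genes with 1 retained intron event this held for 4, and 3 of them are shown because they stand for a late shift, a small late difference and a settled value. That the event is the annotated intron is assumed and was not checked. The noncoding RNA gene AT5G28262 has 1 annotated intron but retained intron events with different PSI, so the 2 need not match. The remorin gene AT2G41870 (intron at chr2:17471320-17471895, minus strand, 576 bases, 31.8% GC) had PSI of 0.72 on day 3 and 0.58 on day 5. AT5G65170 (chr5:26041726-26041890, plus strand, 165 bases, 42.4% GC) had 0.86 and 0.91. AT4G02540, a C1 domain gene (chr4:1118898-1119006, plus strand, 109 bases, 39.4% GC), had 0.48 and 0.47. All 3 introns lie between coding positions in the RefSeq annotation of TAIR10.1, from which the sequences were read. Each line below runs 5′ to 3′ and gives 10 exon and 20 intron bases at the 5′ site or 20 intron and 10 exon bases at the 3′ site, with the first or last 2 intron bases in capitals.
AT2G41870 5′ site: gaaaattgagGTaatttttttttataatta
AT2G41870 3′ site: tttgggatcgatgcatgcAGaggaagctag
AT5G65170 5′ site: gaattcacggGTaatccttcaactcctttc
AT5G65170 3′ site: ttaccttcctccttcttcAGagtaccatca
AT4G02540 5′ site: atctattttgGTaacttcttctcctgtatg
AT4G02540 3′ site: catctgctcactctatccAGaacatacgaa
All 3 carry GT and AG, as do 98.5% of the 5535 annotated introns of the genes in the table. The intron of AT2G41870 is annotated as spliced out in its single RefSeq transcript, while the other 2 are also kept in 1 annotated transcript.

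Most events differed little between days 3 and 5. The median absolute difference was 0.02, with quartiles of 0.01 and 0.05 and a maximum of 0.28. PSI was equal on both days in 91 events, and 328 events, or 51.4% (exact Clopper-Pearson 95% interval over events 47.5 to 55.4%), lay within 0.02 and are called settled here. At the other end, 43 events in 39 genes, 6.74% of all (4.92 to 8.97%), differed by at least 0.1 and are called late shifts. Of these, 14 (2.19% of all events) were higher and 29 (4.55%) were lower on day 5. The intervals treat events as independent, which events of one gene are not, and they do not measure the spread between samples. The threshold cuts through a continuous range, since 12 events stood at 0.09 and 11 at 0.10. The excess of lower events also depends on it, because of the 14 events that differed by at least 0.15 there were 10 higher and 4 lower. The earlier step within the warmth, day 3 minus day 1, had a median of 0.03, with 62 events (9.72%) at 0.1 or more and 281 (44%) within 0.02. For the first step, day 1 minus 16 °C, the median was 0.11, and 388 events passed 0.1. These steps share groups, and the table lists only events that the authors called against 16 °C on at least 1 day, so a smaller late step is partly set by what was listed.

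**Figure D1:**
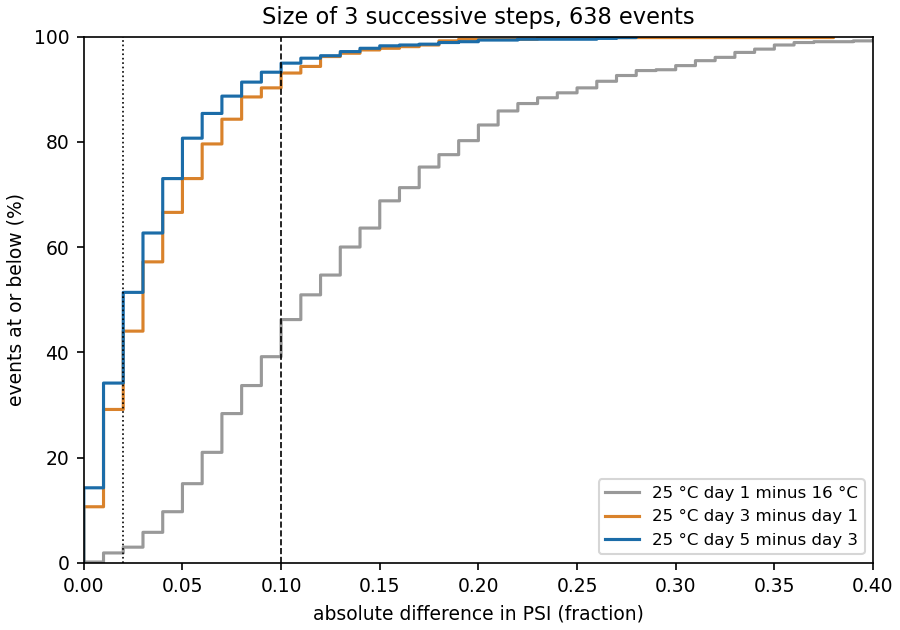
Share of the 638 events (y axis, percent) whose absolute difference in PSI (x axis, fraction) is at or below each value, for 3 successive steps. The dotted line marks 0.02 and the dashed line 0.1; 51.4% of events lie within 0.02 between days 3 and 5 and 44% between days 1 and 3.

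**Figure D2:**
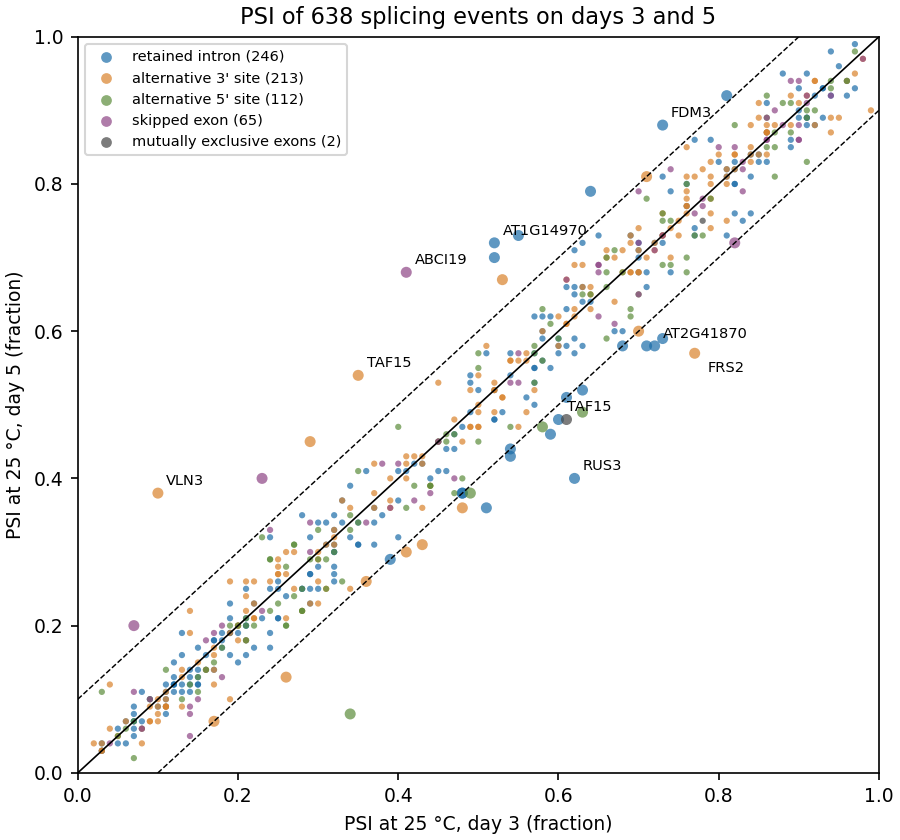
PSI at 25 °C on day 3 (x axis) against day 5 (y axis) for 638 events, coloured by event type, with the line of equality and dashed lines 0.1 above and below it. Large points are the 43 events that differ by at least 0.1, 14 above and 29 below the line of equality.

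The widest late difference was an alternative 3′ site of *VLN3* (AT3G57410, chromosome 3, 21243136 to 21251159), a villin that bundles and severs actin filaments. Its PSI was 0.59 at 16 °C and 0.15, 0.10 and 0.38 on days 1, 3 and 5, a difference of 0.28 between the last 2 days. A skipped exon of *ABCI19* (AT1G03905, chromosome 1, 993400 to 995989), which encodes a soluble protein of the ABC transporter family, stood at 0.79 at 16 °C, then at 0.58, 0.41 and 0.68. In both genes the day 3 value was the lowest of the 4 and the day 5 value lay between day 3 and 16 °C.

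An alternative 3′ site of *TAF15* (AT1G50300, chromosome 1, 18628555 to 18632039), which encodes a protein associated with the TATA-binding factor of transcription, was at 0.58 in the cool and at 0.24, 0.35 and 0.54 in the warmth. In AT3G28956, annotated as an Rpb4 core protein of RNA polymerase II, one skipped exon was at 0.41 and then at 0.10, 0.23 and 0.40, and another at 0.21 and then at 0.04, 0.07 and 0.20. These 3 events were each within 0.05 of their 16 °C value on day 5, which held for 8 of the 43 late shifts. A retained intron of AT1G61490, a gene of the S-locus lectin kinase family, had PSI of 0.82 at 16 °C and 0.74, 0.55 and 0.73 in the warmth.

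Other events were higher on day 5 and further from 16 °C. Retention in AT1G14970, of the O-fucosyltransferase family, was 0.35 at 16 °C and 0.62, 0.52 and 0.72 on days 1, 3 and 5. For *CTF2A* (AT2G35660), an oxidoreductase gene, an alternative 3′ site was at 0.15 and then at 0.37, 0.29 and 0.45, while retention in the same gene hardly differed (0.05 on day 3 and 0.04 on day 5). *FDM3* (AT3G12550, chromosome 3, 3978005 to 3981881), of a family known from RNA-directed DNA methylation, had retention of 0.65 at 16 °C, 0.71 and 0.73 on days 1 and 3 and 0.88 on day 5. AT4G17310, of unknown function, had 0.63 at 16 °C and 0.58, 0.64 and 0.79 in the warmth. For *FDM3* and AT4G17310 the day 5 value stood apart from the 3 others, which lay within 0.08 and 0.06 of each other.

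**Figure D3:**
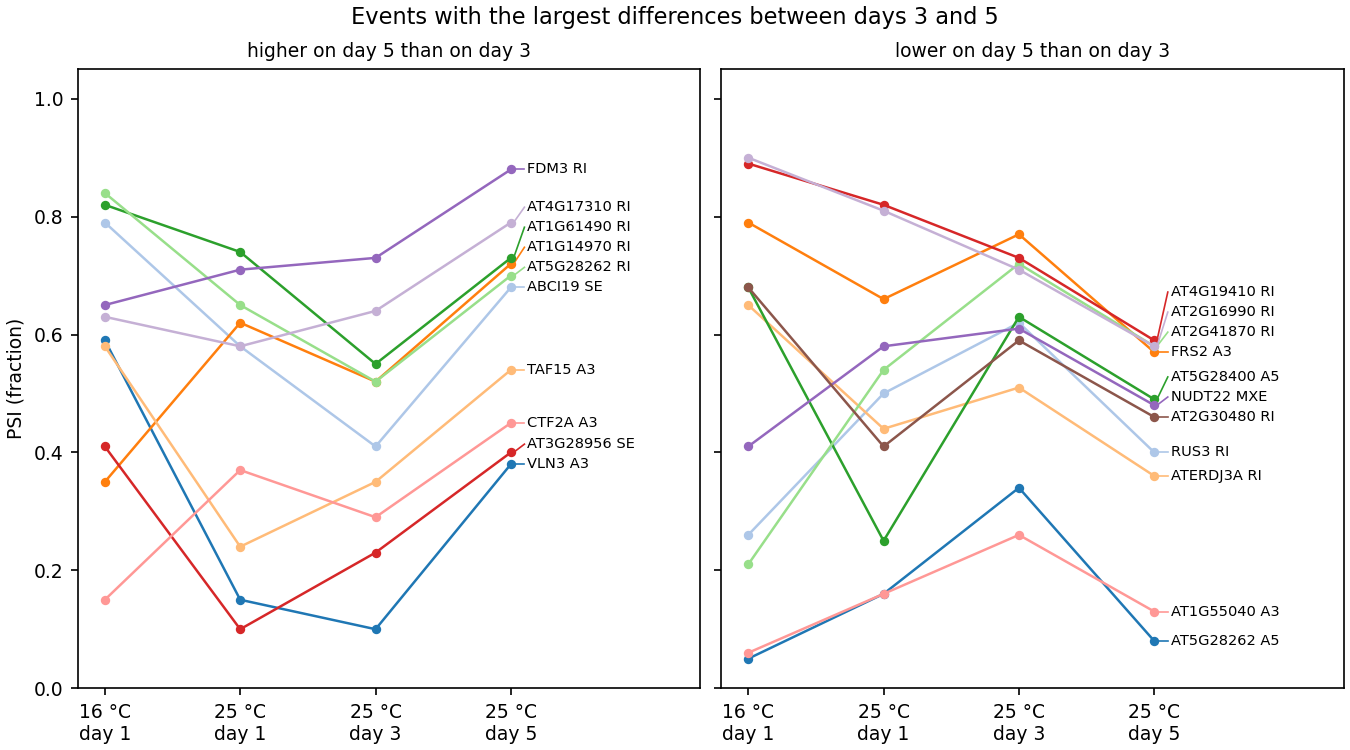
PSI (y axis, fraction, 1 value per group) at 16 °C and on days 1, 3 and 5 at 25 °C for the 10 events with the largest positive and the 11 with the largest negative difference between days 5 and 3, ties included. RI is a retained intron, A3 and A5 an alternative 3′ or 5′ site, SE a skipped exon and MXE mutually exclusive exons; lines join the groups of one event and show no error because none is given. On the left *VLN3* runs from 0.10 to 0.38 between days 3 and 5, and on the right *RUS3* from 0.62 to 0.40.

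Among events that were lower on day 5, the widest difference, -0.26, was at an alternative 5′ site of the noncoding RNA gene AT5G28262, with 0.05 at 16 °C and 0.16, 0.34 and 0.08 in the warmth. A retained intron of *RUS3* (AT1G13770, chromosome 1, 4721574 to 4724520), of the ROOT UVB SENSITIVE family, was kept in a share of 0.26 at 16 °C, and in the warmth PSI stood at 0.50, 0.62 and 0.40. Retention in the remorin gene AT2G41870, whose only annotated intron has its splice sites printed above, was at 0.21 and then at 0.54, 0.72 and 0.58. Remorins are plant proteins of plasma membrane domains. An alternative 3′ site of AT1G55040, a Ran-binding type zinc finger gene, ran at a lower level, with 0.06 and then 0.16, 0.26 and 0.13. In these 4 events PSI was highest on day 3, and day 5 stood between 16 °C and day 3.

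A different order was seen in *FRS2* (AT2G32250, chromosome 2, 13693094 to 13697206), of the FHY3 and FAR1 family of transcription regulators known from far-red light signalling. Its alternative 3′ site was at 0.79 in the cool, 0.66 on day 1, 0.77 on day 3 and 0.57 on day 5, so that days 1 and 5 were low and day 3 was near 16 °C. *ATERDJ3A* (AT3G08970, chromosome 3, 2737297 to 2740549), a J-domain co-chaperone of the endoplasmic reticulum, had retention of 0.65 at 16 °C and 0.44, 0.51 and 0.36 in the warmth. For AT5G28400, of unknown function, an alternative 5′ site was at 0.68 and then at 0.25, 0.63 and 0.49. Retention in AT2G30480, also of unknown function, was 0.68 and then 0.41, 0.59 and 0.46. All 4 genes had a day 3 value above both other warm days.

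Retained introns of the pectin acetylesterase gene AT4G19410 and of AT2G16990, a member of the major facilitator superfamily of transporters, were lower on each later day. The first had PSI of 0.89 in the cool, and 0.82, 0.73 and 0.59 followed. For the second the 4 values were 0.90, 0.81, 0.71 and 0.58. Mutually exclusive exons of *NUDT22* (AT2G33980), a nudix hydrolase gene, had a PSI of 0.41 at 16 °C and of 0.58, 0.61 and 0.48 in the warmth. The only other event of this type, in *FLM*, was at 0.78 on day 3 and 0.75 on day 5. The annotated span of *NUDT22*, 10295 bases, overlaps a run of other genes from AT2G33890 to AT2G33970, whose reads may enter its PSI.

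The remaining 18 lower events differed by 0.10 to 0.12. They include alternative 3′ sites of *CNGC6* (AT2G23980), a cyclic nucleotide-gated calcium channel (0.48 on day 3 and 0.36 on day 5), and of *XRCC2* (AT5G64520), a DNA repair gene (0.41 and 0.30). An alternative 5′ site of *HDG2* (AT1G05230), a homeodomain gene of the epidermis, was at 0.49 and 0.38. Retention in *NUFIP* (AT5G18440), which acts in assembling small nucleolar particles, was 0.54 and 0.43.

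The late shifts were sorted by their place in the 4 values. For 8 of the 43 late shifts the step from day 1 to day 3 was at most 0.02, against 281 of all 638 events (44%). Of these 8 late shifts, 5 had already moved by more than 0.1 on the first warm day. In 4 of the 5 the late step went back toward 16 °C, namely the alternative 3′ sites of *CNGC6* (0.27 at 16 °C and 0.47, 0.48 and 0.36 in the warmth), *XRCC2* (0.21 and then 0.40, 0.41 and 0.30) and AT5G06980 (0.79 and then 0.53, 0.53 and 0.67) and a retained intron of *TAF15* (0.44 and then 0.62, 0.60 and 0.48). A retained intron of *PLDGAMMA3*, which encodes a phospholipase D, instead moved further away (0.84 and then 0.67, 0.68 and 0.58). The other 3, which differed little from 16 °C before day 5, were that of *FDM3* and 2 retained intron events of *UPL6*, which encodes a ubiquitin ligase (both 0.49 and then 0.46, 0.48 and 0.38). In 15 events the steps before and after day 3 were both at least 0.1 and opposite in sign, as in *RUS3*, *FRS2*, *ABCI19* and AT1G61490. The transcribed pseudogene AT2G19250 is another, with an alternative 3′ site at 0.12 in the cool and at 0.20, 0.43 and 0.31 in the warmth. Because both steps contain the day 3 value, a deviation of that group alone would give the same pattern, and its part in the result was not tested. Only 4 events had both steps at least 0.1 in the same direction, in AT2G16990, AT3G28956, *TAF15* and AT1G62130. Over the whole table, 62 of 638 events (9.72%) had a step of at least 0.1 from day 1 to day 3.

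Between days 3 and 5, 547 events differed at all. Of these, 288 (52.7%, exact Clopper-Pearson 95% interval 48.4 to 56.9%) moved in the direction of their 16 °C value. The late shifts were split into 24 toward and 19 away from the 16 °C value. Among the 14 higher events 10 went toward it and 4 away, and among the 29 lower events 14 and 15. None of the 24 that went toward the 16 °C value passed beyond it on day 5, and the 19 that went away from it could not. The day 3 value enters both the late step and the distance from 16 °C, so a share above 50% is partly built in.

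In 12 of the 39 genes with a late shift the table holds further events, and in 4 of these 12 every other event differed by at most 0.05. *FCA* (AT4G16280, chromosome 4, 9206597 to 9214981), which acts in the autonomous flowering pathway by binding RNA, is one. Its alternative 5′ site was at 0.43 in the cool and at 0.46, 0.58 and 0.47 in the warmth, while its retained intron was at 0.15 on day 3 and 0.13 on day 5. The noncoding RNA gene AT5G28262 (chromosome 5, 10238550 to 10239773) had late shifts of opposite sign, the alternative 5′ site given above and a retained intron with 0.84 at 16 °C and 0.65, 0.52 and 0.70 in the warmth, while another retained intron stayed between 0.54 and 0.60 in the warmth. In *TAF15* the alternative 3′ site was higher by 0.19 on day 5 and the retained intron differed by -0.12. AT1G06710, a tetratricopeptide repeat gene, likewise had retention of 0.54 and 0.44 and a skipped exon at 0.24 and 0.33. Events of one gene can share reads and are not independent of each other.

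Some late shifts had relatives in the table. These families were picked after their values were seen. *VLN1* (AT2G29890), a second villin gene, had retention of 0.77 on days 1 and 3 and of 0.86 on day 5. *CNGC12* (AT2G46450) had an alternative 3′ site at 0.56 on day 3 and 0.49 on day 5, lower as in *CNGC6*. *FRS1* (AT4G19990) and *FRS4* (AT1G76320) had retention of 0.46 and 0.89 on day 3 and 0.41 and 0.86 on day 5, also lower but by less than the *FRS2* site. *PLDGAMMA2* (AT4G11830) had 0.54 on both days, unlike *PLDGAMMA3*, where one retained intron went from 0.88 to 0.95 and the other from 0.68 to 0.58.

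By type of event, retained introns held 21 of the 43 late shifts, 6 higher and 15 lower, among 246 events (8.54%). Alternative 3′ sites held 13 of 213, 5 higher and 8 lower. Alternative 5′ sites held 4 of 112, all lower, skipped exons 4 of 65, 3 higher and 1 lower, and mutually exclusive exons 1 of 2. Alternative 3′ sites had the largest share of settled events, 126 of 213 (59.2%), against 119 of 246 retained introns (48.4%), 53 of 112 alternative 5′ sites (47.3%) and 30 of 65 skipped exons (46.2%). Counting every nonzero difference, retention was higher on day 5 in 79 events and lower in 132, whereas between days 1 and 3 it had been higher in 155 and lower in 71. The mean PSI of the 246 retained introns was 0.449, 0.467 and 0.458 on days 1, 3 and 5 and 0.455 at 16 °C. For alternative 3′ sites the same means were 0.495, 0.498 and 0.498, with 93 events higher and 86 lower on day 5 than on day 3. Alternative 5′ sites were like retained introns, with means of 0.487, 0.495 and 0.482 and with 35 events higher and 64 lower. Skipped exons had 28 higher and 28 lower, and all events together 235 higher and 312 lower. Both retention counts contain the day 3 group, whose mean retention was the highest of the 4. Whether that group differs from its neighbours beyond the spread of its samples was not tested.

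Of the 115 events at least 0.2 from 16 °C on day 3, 36 (31.3%) were settled, against 51.4% of all events. Of these, 25 were within 0.01 of their day 3 value on day 5. *AGO1* (AT1G48410, chromosome 1, 17885633 to 17892632), the main slicer of the microRNA pathway, had an alternative 3′ site at 0.74 in the cool and at 0.41, 0.39 and 0.40 in the warmth. An alternative 5′ site of *FLM* (AT1G77080, chromosome 1, 28955483 to 28960234) was at 0.89, followed by 0.63, 0.60 and 0.59. *DEG15* (AT1G28320), a peroxisomal protease gene, had an alternative 3′ site at 0.48 and then at 0.69, 0.75 and 0.75. In these genes most of the displacement was present on day 1.

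An exon of *SCL33* (AT1G55310, chromosome 1, 20629698 to 20633007), an SR-like splicing factor, had a PSI of 0.52 at 16 °C and of 0.78 on all 3 warm days. Another skipped exon event of *SCL33* was at 0.66 and then at 0.90, 0.86 and 0.86. The transcribed pseudogene AT3G46385 had 0.48 and then 0.19 on each warm day. Equal values on all 3 warm days were found in 20 events, and in 252 genes every event of the table was settled. The neighbouring genes *ABCB26* (AT1G70610), an ABC transporter gene, and AT1G70620 had nearly the same alternative 3′ site values, 0.34 and 0.35 at 16 °C and 0.61 on both late days, and belong to 1 assembled locus, so they may be the same event listed under both genes. Among the 62 events that moved by at least 0.1 between days 1 and 3, 15 then moved as far in the opposite direction and 4 in the same direction, again by at least 0.1. Another 16 settled, a smaller share than the 51.4% settled over all events. Examples are a retained intron of the primary transcript of *MIR171b* (AT1G11735), with 0.62 at 16 °C and 0.39, 0.52 and 0.52 in the warmth, and one of the immune receptor gene *RPS6* (AT5G46470), with 0.64 and then 0.46, 0.58 and 0.56.

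**Figure D4:**
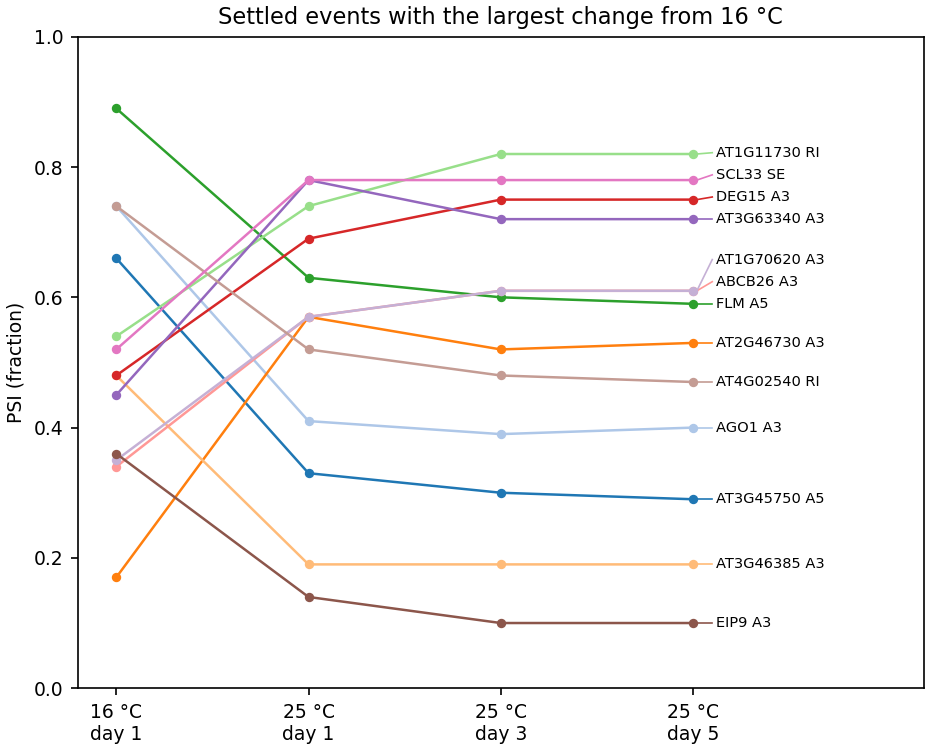
PSI (y axis, fraction, 1 value per group) at 16 °C and on days 1, 3 and 5 at 25 °C for the 13 events, ties included, with the largest change from 16 °C to day 3 among those that differ by at most 0.01 between days 3 and 5. Lines join the groups of one event; *SCL33* stands at 0.78 on all 3 warm days and *AGO1* at 0.41, 0.39 and 0.40.

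Flowering genes did not stand out from the table. Of 14 events in 10 of 30 listed flowering genes, 1, the alternative 5′ site of *FCA*, was a late shift (7.14%, against 6.74% of all events) and 6 were settled (42.9%, against 51.4%), with a median absolute difference of 0.03 against 0.02 over all events. Retention in *EDM2* (AT5G55390), a chromatin-linked regulator, was 0.28 on day 3 and 0.35 on day 5, and in *HUA2* (AT5G23150), a processing factor that promotes *FLC* expression, 0.71 and 0.66. The retained introns of *FLM* and of its relative *MAF2* (AT5G65050) were at 0.32 and 0.30 and at 0.54 and 0.57. None of 11 events in 7 of 26 clock genes was a late shift, and 6 were settled (54.5%). The widest was an alternative 5′ site of *CKB3* (AT3G60250), a casein kinase subunit, with 0.41 and 0.36. All 4 events of the clock co-activator *LNK2* (AT3G54500) differed by 0.03 or less, and an exon of *PRR7* (AT5G02810) was at 0.86 on all warm days. Retention in *PRR7* was 0.38 on day 3 and 0.35 on day 5.

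Genes of the splicing machinery were in the table with 0 late shifts in 14 and in 18 events, lists so short that the overall 6.74% amounts to about 1 event in each, and their settled shares (50% and 44.4%) were not above the 51.4% of all events. In 10 of 20 SR protein genes, which bind RNA and help select splice sites, 14 events were listed and 7 were settled. The widest were an exon of *RS40* (AT4G25500), at 0.61 on day 3 and 0.67 on day 5, an exon of *SR45a* (AT1G07350), at 0.29 and 0.34, and an alternative 3′ site of *SR30* (AT1G09140), at 0.21 and 0.26. As wide but lower on day 5 were an alternative 3′ site of *RS40*, at 0.26 and 0.21, and retention in *SCL30A* (AT3G13570), at 0.63 and 0.58. In 16 of 27 other splicing factor genes, 8 of 18 events were settled. An exon of *smB* (AT4G20440), a core protein of spliceosomal particles, came nearest to the threshold with 0.70 and 0.79, the latter 0.01 from its 16 °C value of 0.78. *PTB1* (AT3G01150), whose product binds pyrimidine-rich stretches of introns, had an exon at 0.70 and 0.65, while *U1-70K* (AT3G50670) was at 0.47 and 0.46.

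The 22 listed chromatin and silencing genes had 26 events, of which 17 were settled and none was a late shift. *FDM3*, a late shift described above from a family known from RNA-directed DNA methylation, was not on this list. The widest differences on the list were an alternative 3′ site of AT1G58025, a bromodomain gene (0.45 and 0.53), and retention in *TOP3A* (AT5G63920), a topoisomerase gene (0.40 and 0.32). Of 23 events in 17 hormone-related genes, 16 were settled and 1 was a late shift, a skipped exon of *BRXL3* (AT1G54180), of the BREVIS RADIX family, with 0.84 at 16 °C and 0.72, 0.82 and 0.72 in the warmth. For *PIN7* (AT1G23080), an auxin efflux carrier gene, both alternative 5′ site events were at 0.24 and 0.29. In 25 genes of light signalling and the chloroplast 22 of 28 events (78.6%) were settled, and the late shifts were those of *FRS2* and of *AGY1* (AT4G01800, also called *SECA1*), the motor of protein transport into thylakoids, whose retention was 0.39 and 0.29. Many of these 28 events had a day 3 PSI below 0.20 or above 0.80, where 65.9% of the events in the whole table were settled. All 9 events of 5 immune receptor genes differed by 0.04 or less. These counts are set against 6.74% late shifts and 51.4% settled events over the whole table. The last 4 lists were drawn from genes of this table, so all of their genes are in it.

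**Figure D5:**
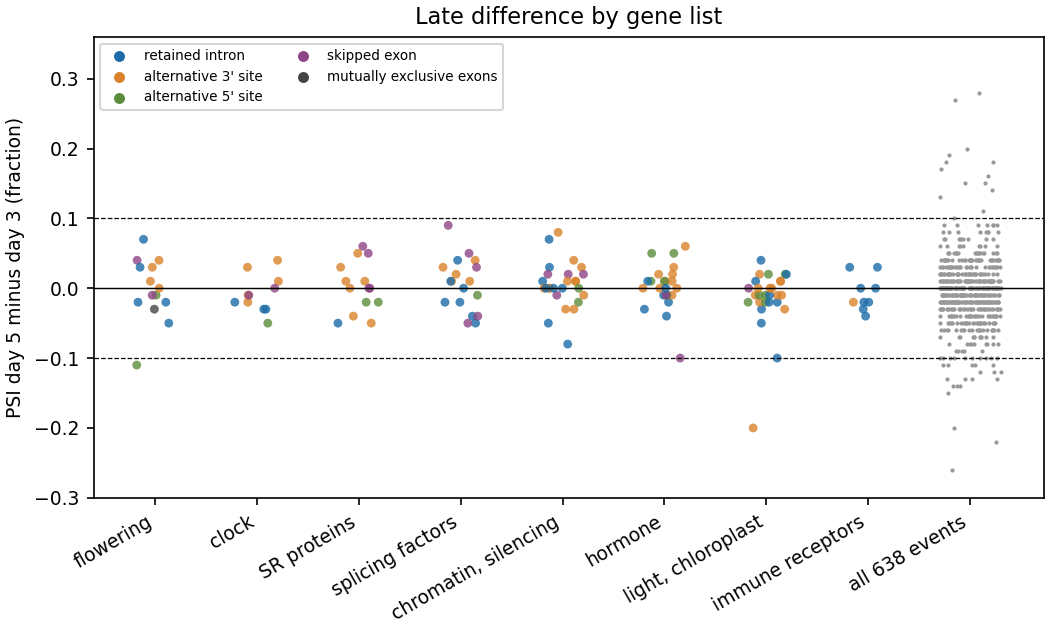
Difference in PSI between days 5 and 3 (y axis, fraction) for each event of 8 gene lists, coloured by event type, and for all 638 events in grey. Dashed lines mark 0.1 in either direction; points are spread sideways only for visibility, and the lowest listed point is *FRS2* at -0.20.

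Groups formed by words in the annotation text were small and so held few late shifts each. Over all events the shares were 6.74% late shifts and 51.4% settled. Transport genes had 2 late shifts in 29 events (6.9%), *CNGC6* and AT2G16990. Of the 29 events 9 settled (31%), the median absolute difference was 0.03, and the words also took in *AGO1* through its annotation text. The kinase genes caught by the words had 1 late shift in 21 events (4.76%). Some genes annotated as protein kinases were missed, among them AT5G50330 (0.48 on day 3 and 0.40 on day 5), AT5G44290 (0.23 and 0.32) and AT2G37840 (0.34 and 0.35). RNA-binding genes had 2 in 34 (5.88%), *FCA* and the KH domain gene AT2G25970, with 0.61 and 0.51. Ubiquitin genes had 2 in 14 (14.3%, both in *UPL6*), chaperones 1 in 8 (12.5%, *ATERDJ3A*) and membrane traffic and cytoskeleton genes 1 in 17 (5.88%, *VLN3*). Genes whose annotation text says that a function is unknown held 6 late shifts in 56 events (10.7%), though this wording also took in *RUS3*, *NUFIP* and *LNK2*. With counts this small, 1 event moves a share by several percentage points.

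Late shifts were also counted by where an event stood on day 3. Of 406 events with a day 3 PSI from 0.20 to 0.80, 38 (9.36%) were late shifts, and of the 232 outside that range 5 (2.16%). A PSI near 0 or 1 can move less on this scale. Of the 115 events at least 0.2 from 16 °C on day 3, 19 (16.5%) were late shifts, with a median absolute difference of 0.04. The share was 8.77% for events under 0.05 from 16 °C, 2.01% from 0.05 to 0.09 and 5.62% from 0.10 to 0.19, so it did not rise steadily, and the day 3 value that sorts the events also enters the late difference. Genes with late shifts had a median of 9 annotated introns, a length of 3877 bases and a median intron of 128 bases, counted per event, against 10 introns, 3461 bases and 113 bases for settled events. By annotation 14 of the 39 genes with a late shift overlap another gene, as do 163 of all 511, and for these reads of the neighbour may enter the PSI.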

How the data were processed

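Polyadenylated RNA of 12 samples was sequenced with a strand-marking kit. Reads were aligned by the authors to TAIR10 with TopHat (TopHat2 in the study's methods) and assembled with Cufflinks, custom scripts of theirs found the events, and MISO gave PSI. No other version number is stated there. The deposited PSI is a fraction per group, and the methods describe MISO runs on single samples and on merged replicates without saying which the table holds. A further column with the authors' calls against 16 °C was not used. The table lists only events that carry such a call.

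Differences were computed with Python 3.11.15 and pandas 2.3.3 on all 638 events, and the counting was tested on simulated data. Replicate tests planned for PSI per sample were replaced by description, since the 4 PSI columns hold 1 value per group. Late means at least 0.1, settled at most 0.02. Shares carry exact Clopper-Pearson intervals from scipy 1.17.1, which concern listed events, not plants. All listed events were counted, and the intervals treat them as independent draws although 213 events fall in 86 genes, so they give no firm precision. Named events are the 10 largest differences in each direction, the 10 settled events furthest from 16 °C (ties included), the widest and all late shifts of each list, genes with 2 or more late shifts, events with a day 1 to day 3 step of at most 0.02 before a late shift, and events whose steps before and after day 3 were opposite. Family members and examples of further events were chosen after their values were seen. The rule and the lists were chosen with earlier results of these data known. Gene names, gene coordinates and introns came from RefSeq (TAIR10.1), which matched 510 of 511 genes; of 599 events with TAIR10 coordinates in their annotation text, 598 lie inside the matched gene. Events without annotation text numbered 38. Alternatives covered other thresholds, 1 event per gene, identical or mirrored events counted once, a day 3 PSI of 0.05 to 0.95, log-odds, and other directions and steps.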

Additional observations from a re-analysis of the deposited data

How the results depend on the processing

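The counts follow the thresholds. Differences of at least 0.05, 0.15 and 0.2 were found in 172, 14 and 6 events, against 43 at 0.1. Of these 66, 10 and 3 were higher and 106, 4 and 3 lower on day 5, so the excess of lower events at 0.1 (14 higher and 29 lower) was present at 0.05 and turned at 0.15. Settled events numbered 218 at 0.01 and 400 at 0.03, against 328. Counting 1 event per gene, collapsing identical or mirrored events, or leaving out extreme day 3 values left 35 to 43 late shifts and 270 to 326 settled events. The share of events whose late step went in the direction of 16 °C was 61% among events at least 0.1 from 16 °C on day 3, against 52.7% overall. The day 3 value sorts these events and also enters the late step, so a higher share is partly built in. Ordered by log-odds, which gives weight to values near 0 and 1, 3 of the 10 highest and 4 of the 11 lowest named events kept their place among the extremes. No paired analysis was possible because the table holds 1 value per group and no sample columns, and for the same reason no replicate could be left out. Whether any single difference exceeds the spread between samples cannot be told from these values.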
